A study of Homo sapiens with 6 samples.

Results

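Metallothioneins and zinc transporters were examined as a readout of the cellular response to metal ions after knockdown of DDX17, a DEAD-box RNA helicase. The genes were taken by symbol: the metallothioneins MT1E, MT1F, MT1X and MT2A, the transcription factor MTF1, and the zinc transporters SLC30A1, SLC39A10 and SLC39A14. Of these 8 genes, 7 were in the count table of 29476 genes, and all 7 passed the filter on low counts, which kept 15615 genes. MT1E was not analysed here. Polyadenylated RNA was sequenced with a stranded protocol from A549 cells, an established human lung adenocarcinoma line, transfected by lipofection with a nontargeting siRNA (siCtrl, 3 libraries) or with a DDX17 siRNA (siDDX17, 3 libraries). The 2 groups are described as differing in the siRNA, both were grown with serum, penicillin and streptomycin, and the sources used here name no added metal or metal chelator for either. The genotype labels call the groups control plasmid and DDX17 knockdown, whereas the sample titles and the methods describe siRNA. Cells were harvested at 48 h for RT-qPCR, and a time for the sequenced RNA is not given in the sources used here. A single cell line and a single DDX17 siRNA limit both groups as a model.

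Metallothioneins are small cysteine-rich proteins that bind zinc and copper ions in the cytosol and buffer their free concentrations. When free zinc rises, the zinc finger protein MTF1 binds metal response elements in the promoters of metallothionein genes and of SLC30A1 and raises their transcription, so these RNAs are widely used to read zinc and cadmium exposure. The SLC30 proteins (ZnT) move zinc out of the cytosol, across the plasma membrane or into organelles, and the SLC39 proteins (ZIP) move it into the cytosol.

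The promoter windows run from 250 bases before to 50 bases after the transcription start, as RefSeq places it on GRCh38.p14. They are shown for the metallothionein with the highest level (MT2A, chr16:56608334-56608633, plus strand) and for MT1X in the same gene cluster (chr16:56682220-56682519, plus strand). The window of the zinc exporter SLC30A1 (chr1:211579112-211579411, minus strand) is also shown. These windows were chosen because they hold the motif by which MTF1 targets are recognised. Sequences read 5′ to 3′ on the strand of the gene, and capitals mark each match to the core of the metal response element, TGCGCNC or TGCACNC, on either strand.
MT2A: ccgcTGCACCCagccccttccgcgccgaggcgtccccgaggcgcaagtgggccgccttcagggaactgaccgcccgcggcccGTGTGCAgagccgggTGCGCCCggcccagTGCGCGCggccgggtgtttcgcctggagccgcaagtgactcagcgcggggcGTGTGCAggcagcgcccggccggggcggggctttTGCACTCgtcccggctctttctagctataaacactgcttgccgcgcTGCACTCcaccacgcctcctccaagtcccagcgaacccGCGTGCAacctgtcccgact
MT1X: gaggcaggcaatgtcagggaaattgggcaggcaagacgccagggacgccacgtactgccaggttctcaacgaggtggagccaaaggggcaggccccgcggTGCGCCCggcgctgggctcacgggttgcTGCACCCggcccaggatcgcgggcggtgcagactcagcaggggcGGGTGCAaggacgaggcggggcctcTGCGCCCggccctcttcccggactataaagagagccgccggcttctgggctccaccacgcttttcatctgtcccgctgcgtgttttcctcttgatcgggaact
SLC30A1: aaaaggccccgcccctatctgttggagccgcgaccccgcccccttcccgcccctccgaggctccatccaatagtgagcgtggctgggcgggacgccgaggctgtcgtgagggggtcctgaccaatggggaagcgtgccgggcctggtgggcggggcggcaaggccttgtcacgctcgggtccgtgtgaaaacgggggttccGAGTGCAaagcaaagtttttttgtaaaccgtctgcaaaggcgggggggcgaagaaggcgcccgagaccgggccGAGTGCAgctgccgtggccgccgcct
The MT2A window held 8 matches, the MT1X window 4 and the SLC30A1 window 2, and no match overlapped another. Of the 35116 RefSeq promoter windows of this length, 29.6% held at least 1 match, 8.6% at least 2, 0.601% at least 4 and 0.0199% at least 8. These shares are a description and not a test, since the windows shown were chosen for holding the motif. They were also not matched for GC content, which was 72.0% for MT2A, 67.0% for MT1X and 68.0% for SLC30A1. The MTF1 window held 0 matches, and the 2 windows of SLC39A10 held 0 and 1. Promoter entries were matched for 5 of the 8 genes, and MT1E, MT1F and SLC39A14 had none. A match is a description of the letters in the window and not a measured binding site, and 0 matches say only that these letters were not in it.

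**Figure D1:**
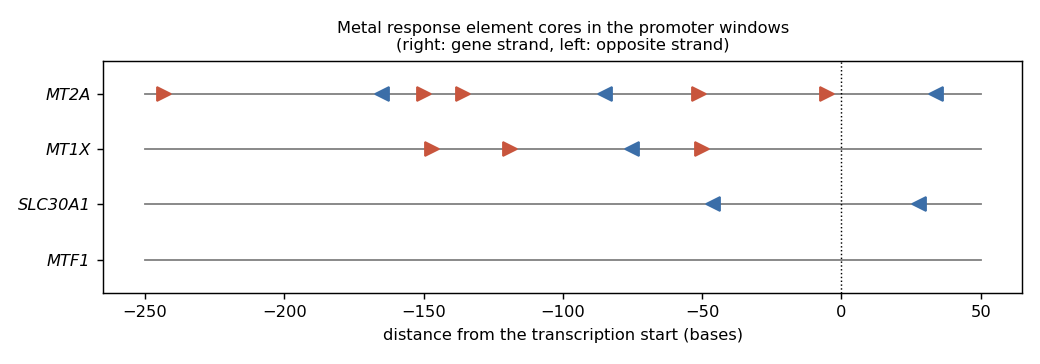
Positions of the metal response element cores in the promoter windows of MT2A, MT1X, SLC30A1 and MTF1; the horizontal axis is the distance from the transcription start in bases, and triangles point right for matches on the strand of the gene and left for the opposite strand. The 8 matches of MT2A were spread over the window, the 4 of MT1X lay upstream of the start, SLC30A1 had 2 and MTF1 had 0.

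DDX17 itself was at 177, 184 and 206 CPM (counts per 1000000 reads of the library, scaled by the TMM method of edgeR) in siCtrl replicates 1, 2 and 3 and at 32.1, 30.8 and 30.4 CPM in siDDX17 replicates 1, 2 and 3. Its log2 fold change was -2.60 (SE 0.0685, 95% interval -2.75 to -2.45), and every siDDX17 library was below every siCtrl library. The libraries held 30658136 to 39182371 counted reads. The siCtrl 1 library stood apart from the other controls: the chi-square per gene was 20.3 and 25.6 against siCtrl 2 and 3, compared with 5.83 between those 2 and 3.62 to 5.49 among the siDDX17 libraries, so the values of the 7 genes are given with and without it. On the FPKM scale, which divides by gene length, the epithelial keratin genes KRT8 and KRT18 were at 1090 to 1371, whereas the epithelial marker EPCAM was at 0.34 to 1.14. Over the 5 epithelial markers, the summed level was 5534 to 6096 CPM in siCtrl and 4834 to 5266 in siDDX17, and over the 4 markers of A549 (AKR1B10, AKR1C1, AKR1C2, ALDH1A1) it was 10131 to 11339 and 8830 to 9022 CPM. The epithelial sum was set by KRT8 and KRT18, and EPCAM went the other way, from 0.738, 1.08 and 0.827 CPM in siCtrl to 2.28, 2.22 and 2.21 CPM in siDDX17 (log2 fold change 1.35, adjusted p = 7.68e-05). The highest value of any leukocyte, endothelial or fibroblast marker in any library was 0.311 CPM, and PTPRC, CDH5, VWF, LUM and DCN were at 0 in at least 1 library. Their summed levels in siCtrl and in siDDX17 were at most 0.107 and 0.110 CPM for 2 leukocyte markers, 0.413 and 0.192 CPM for 3 endothelial markers, and 0.347 and 0.441 CPM for 3 fibroblast markers. The part of these marker levels in the results was not tested.

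Of the 7 genes tested, 1 fell, 0 rose and 6 did not pass the test at an adjusted p under 0.05 (edgeR quasi-likelihood test with Benjamini-Hochberg adjustment over 15615 genes). The gene that fell was MT2A. The background was wide, since 24.5% of all tested genes were called higher and 24.3% lower, so 1 of 7 lower and 0 of 7 higher are not above the shares among all genes. At an unadjusted p under 0.05 the counts were also 1 lower and 0 higher, beside 4282 lower and 4303 higher of all 15615 tested genes. DESeq2 gave 1 lower and 0 higher, beside 3547 lower and 3223 higher of 29476 genes. With a further limit of an absolute log2 fold change over 1, which 7.57% of all tested genes passed in either direction, 0 of the 7 were called by edgeR or DESeq2. The median log2 fold change of the 7 was -0.07, against 0.01 over all tested genes, and 6 of the 7 values were negative, as were 7714 of the 15615 over all tested genes. With scaling by library size only, and in the 3 limma fits on FPKM, MTF1, SLC30A1 and SLC39A10 turned positive and 3 of the 7 were negative. In CPM the groups did not overlap for 2 of the 7, MT2A and SLC39A14, compared with 56.5% of all tested genes. On the FPKM scale the groups overlapped for MT2A and for SLC39A14. The p-values measure the spread between these libraries, which the study describes as biological replicates.

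**Figure D2:**
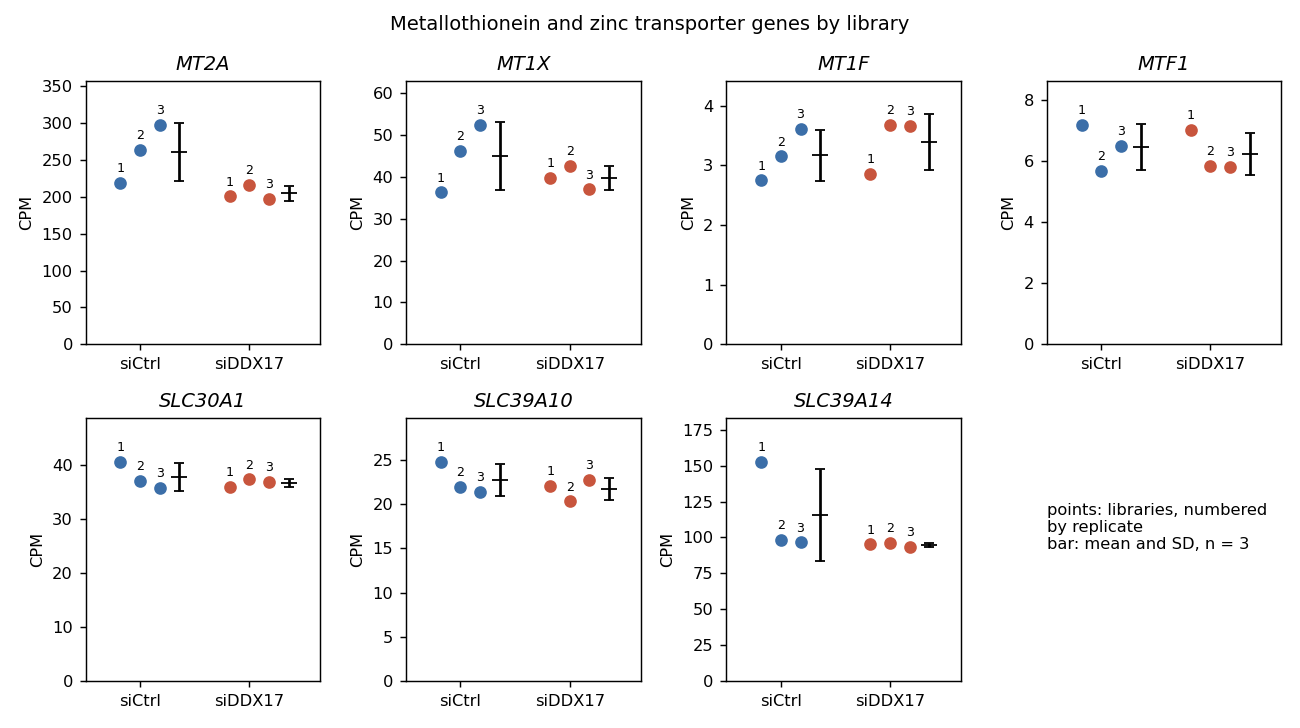
CPM of the 7 genes in each library, each panel from 0; blue points are siCtrl and red points siDDX17 libraries, numbered by replicate, and bars give the mean and SD (n = 3). MT2A was lower in every siDDX17 library than in every siCtrl library, SLC39A14 was high in siCtrl 1 only, and the groups overlapped for the other 5 genes.

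MT2A, the main human metallothionein in most cells (ENSG00000125148.6; chr16:56608584-56609497, plus strand, GRCh38, GENCODE release 44), was at 219, 264 and 298 CPM in siCtrl replicates 1, 2 and 3 and at 201, 216 and 197 CPM in siDDX17 replicates 1, 2 and 3. The siDDX17 libraries lay close together and all were below the siCtrl libraries in CPM, and the lowest control, siCtrl 1, was near them. On the FPKM scale siDDX17 2 was at 216 and siCtrl 1 at 207, so the groups overlapped there. The means were 260 ± 39.3 and 205 ± 10.1 CPM (SD, n = 3), and the log2 fold change was -0.35 (SE 0.0897, 95% interval -0.54 to -0.15, adjusted p = 0.00578). As a percent change this was -21.4% (95% interval -31.3% to -10.1%). In bulk RNA, fewer cells with a transcript and less of it per cell cannot be told apart. The raw counts behind these values were 7432 to 11157 reads in siCtrl and 7602 to 7882 in siDDX17. Without siCtrl 1 the log2 fold change was -0.47, and without siCtrl 3 it was -0.24, and both passed the test. On the FPKM values of the authors, limma gave -0.21 and adjusted p-values of 0.0938 to 0.236, so the call was lost on that scale. Relative to the median of all genes, MT2A was at -0.29 in limma on log2(FPKM + 1) and at -0.32 on log2(FPKM + 0.1). In the main fit it was at -0.35 relative to that median.

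MT1X (ENSG00000187193.8, chr16:56682470-56684196, plus strand) is a metallothionein in the same gene cluster as MT2A and is also induced by zinc. It was at 36.3, 46.1 and 52.5 CPM in siCtrl and at 39.7, 42.6 and 37.0 CPM in siDDX17 replicates 1, 2 and 3. All 3 siDDX17 libraries lay between siCtrl 1 and siCtrl 2, so the groups overlapped. The log2 fold change was -0.18 (SE 0.107, 95% interval -0.41 to 0.05, adjusted p = 0.184) and did not pass the test. Without siCtrl 1 it was -0.32 and passed (adjusted p = 4.84e-05), and without siCtrl 3 it was -0.05 and did not. The call for MT1X therefore depended on siCtrl 1. In the gene annotation a noncoding gene on the same strand (ENSG00000259827) overlaps exons of MT1X and shares 22.0% of the 100-base windows of its canonical transcript, and 51.0% of its 50-base windows occur in other genes. For MT2A and MT1F the share of 50-base windows was 11.1% and 6.12%, and none of their 100-base windows was shared. For windows of 150 bases, the read length given in the paper, the share was 6.67% for MT1X and 0% for MT2A and MT1F. The 100-base windows of MT1X were shared only with the overlapping noncoding gene. How reads were assigned between MT1X and this noncoding gene is not given in the sources used here. The authors trimmed reads and kept those that mapped uniquely. Reads trimmed to within the shorter shared stretches may therefore be missing from the counts of all 3. The extent of this was not tested.

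MT1F, another member of the cluster on chromosome 16 (ENSG00000198417.6; chr16:56657731-56660698, plus strand), was at 2.75, 3.15 and 3.60 CPM in siCtrl and at 2.85, 3.68 and 3.66 CPM in siDDX17 replicates 1, 2 and 3. The groups overlapped, with siDDX17 1 near the lowest control. MT1F had a log2 fold change of 0.10 (SE 0.156, 95% interval -0.24 to 0.43, adjusted p = 0.633), from 90 to 141 reads a library, and it was -0.01 without siCtrl 1. As a percent change the interval ran from -15.3% to 35.1%.

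The list of other metallothionein genes and pseudogenes held 17 symbols, of which 8 were in the table and 2 passed the filter, and 0 of the 2 passed the test in edgeR, also at an unadjusted p under 0.05, or in DESeq2. MT1A, also named below as a close correlate of MT2A, was at 4.37, 5.00 and 5.55 CPM in siCtrl and 4.20, 4.36 and 4.10 CPM in siDDX17, with a log2 fold change of -0.24 (95% interval -0.51 to 0.03, adjusted p = 0.134), and without siCtrl 1 it passed at -0.34 (adjusted p = 0.0300). The pseudogene MT1DP, named after its value was seen, was at 0.280 to 0.521 CPM, with a log2 fold change of 0.06.

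Since short stretches of these transcripts also occur in other genes, the CPM of all 11 metallothionein genes in the table were also summed. The sum was 264, 319 and 360 CPM in siCtrl and 248, 267 and 243 CPM in siDDX17 replicates 1, 2 and 3. The groups overlapped in 1 pair, as siDDX17 2 was slightly above siCtrl 1. The means were 314 ± 48.3 and 253 ± 13.1 CPM (SD, n = 3), a difference of -0.31 on the log2 scale that was described and not tested. MT2A made up 83.3%, 82.8% and 82.7% of these reads in siCtrl, against 81.0%, 80.9% and 81.3% in siDDX17. MT1X made up 13.8%, 14.5% and 14.6% in siCtrl, against 16.0%, 15.9% and 15.3% in siDDX17. The share of MT2A was thus lower, and that of MT1X higher, in every siDDX17 library than in every siCtrl library, a comparison of reads within each library that no scaling between libraries changes. These are shares of reads, not of molecules. The difference between their fold changes was not tested.

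**Figure D3:**
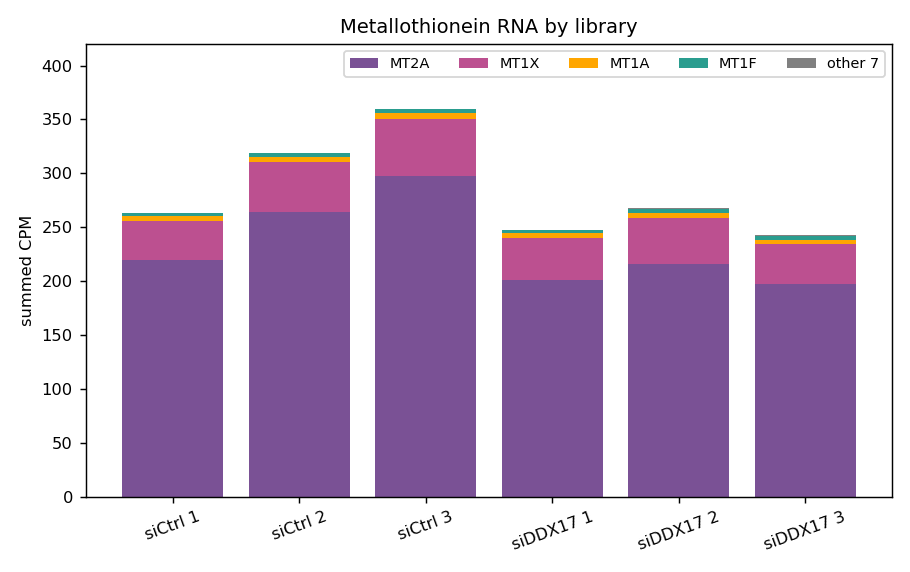
Summed CPM of the 11 metallothionein genes in each library, stacked by gene. MT2A filled 80.9% to 83.3% of each bar; the siCtrl bars stood at 264 to 360 CPM and the siDDX17 bars at 243 to 267 CPM.

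MTF1, the metal-responsive activator of these genes (ENSG00000188786.9; chr1:37809574-37859592, minus strand), was at 7.18, 5.66 and 6.48 CPM in siCtrl and at 7.01, 5.84 and 5.79 CPM in siDDX17 replicates 1, 2 and 3. The libraries of both groups were interleaved. For MTF1 the log2 fold change was -0.06 (SE 0.122, 95% interval -0.32 to 0.21, adjusted p = 0.735), and its sign turned to 0.07 with scaling by library size only and to 0.016 without siCtrl 1. As a percent change the interval ran from -19.9% to 15.6%, and changes within it were not excluded.

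SLC30A1, the exporter that carries zinc across the plasma membrane and a known target of MTF1 (ENSG00000170385.9; chr1:211571568-211579161, minus strand), was at 40.7, 37.2 and 35.8 CPM in siCtrl and at 36.0, 37.4 and 37.0 CPM in siDDX17 replicates 1, 2 and 3. The siDDX17 libraries lay within the range of the controls, of which siCtrl 1 was the highest. The log2 fold change was -0.04 (SE 0.0658, 95% interval -0.18 to 0.10, adjusted p = 0.620), which was the narrowest interval among the 7 genes, from -12.0% to 7.13% as a percent change. The order of the libraries differed from that of MT2A, since siCtrl 1 was the highest control for SLC30A1 and the lowest for MT2A, MT1X and MT1F. The value was 0.0029 without siCtrl 1 and 0.08 with scaling by library size only.

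SLC39A10, an importer at the plasma membrane (ENSG00000196950.13; chr2:195575977-195737702, plus strand), was at 24.8, 22.0 and 21.4 CPM in siCtrl and at 22.0, 20.3 and 22.7 CPM in siDDX17 replicates 1, 2 and 3. The groups overlapped, and the log2 fold change was -0.07 (SE 0.0798, 95% interval -0.24 to 0.10, adjusted p = 0.511). It was -0.0090 without siCtrl 1 and 0.05 with scaling by library size only.

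SLC39A14, an importer of zinc, manganese and non-transferrin-bound iron (ENSG00000104635.13, chromosome 8), was at 153, 98.0 and 96.5 CPM in siCtrl and at 95.1, 96.2 and 93.3 CPM in siDDX17 replicates 1, 2 and 3. A single library, siCtrl 1, was far above the other 5, and the remaining controls were above the siDDX17 libraries by a small margin in CPM. On the FPKM scale siCtrl 2 and siCtrl 3 were at 16.5 and 16.7, below the siDDX17 libraries at 18.0, 17.9 and 17.8. The log2 fold change was -0.29 (SE 0.133, 95% interval -0.58 to 0.00, adjusted p = 0.0915) and did not pass the test. Without siCtrl 1 it was -0.05 (adjusted p = 0.473), without siCtrl 2 it was -0.40 (adjusted p = 0.0290), and without siCtrl 3 it was -0.41 (adjusted p = 0.0142). The difference in means thus lay mostly in siCtrl 1. With no low-count filter it passed at -0.29 (adjusted p = 9.02e-05).

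**Figure D4:**
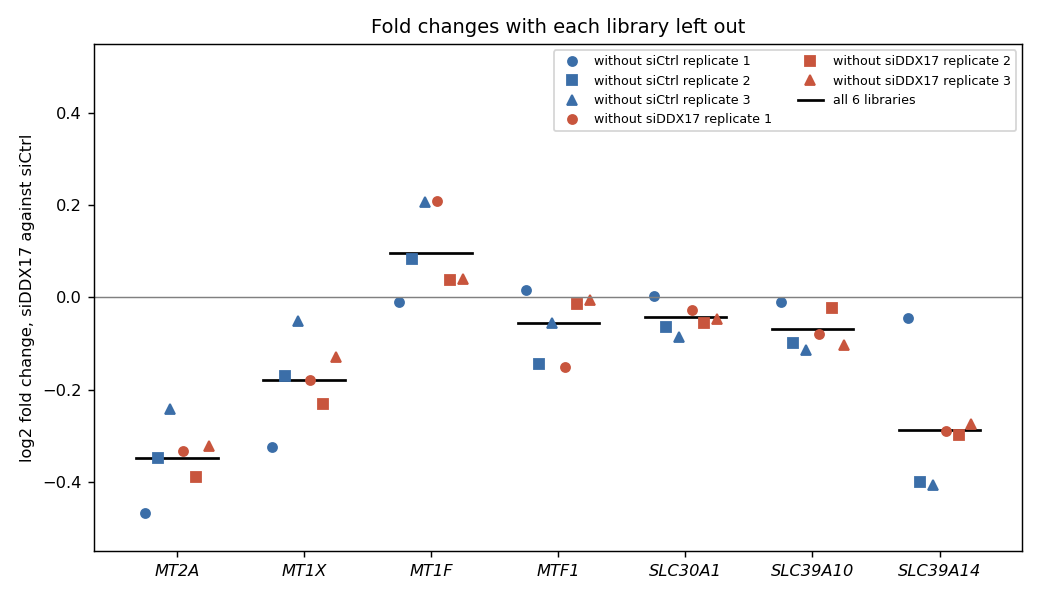
Log2 fold change (siDDX17 against siCtrl) of the 7 genes with each library left out in turn; symbols give the library left out and black lines the value from all 6 libraries. Leaving out siCtrl 1 moved SLC39A14 from -0.29 to -0.05, MT1X from -0.18 to -0.32 and MT2A from -0.35 to -0.47. With each library left out, MT2A ranged from -0.47 to -0.24 and MT1X from -0.32 to -0.05.

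The levels of the 7 genes were ranked on the FPKM scale. In siCtrl, MT2A was at 240 ± 34.2 FPKM, MT1X at 50.0 ± 8.58, SLC39A14 at 20.0 ± 5.98, SLC30A1 at 6.34 ± 0.538, MT1F at 3.94 ± 0.510, SLC39A10 at 3.73 ± 0.372 and MTF1 at 0.743 ± 0.10 (mean ± SD, n = 3). In siDDX17 the FPKM means were 207 ± 7.85 for MT2A, 48.4 ± 2.81 for MT1X, 17.9 ± 0.0777 for SLC39A14, 6.73 ± 0.133 for SLC30A1, 4.63 ± 0.637 for MT1F, 3.89 ± 0.271 for SLC39A10 and 0.780 ± 0.0872 for MTF1. The order was the same in both groups. Over the 6 libraries, only the neighbours MT1F and SLC39A10 overlapped in range, and their order is not resolved.

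The remaining zinc transporters were taken from a list of both families. Among the other SLC39 importers, 12 were in the table and 9 were tested, of which 4 rose, 3 fell and 2 did not pass the test, with a median log2 fold change of 0.11. SLC39A11, a transporter found in the Golgi, was at 11.5, 11.3 and 10.9 CPM in siCtrl and 21.8, 21.4 and 22.1 CPM in siDDX17. Its log2 fold change was 0.96 (SE 0.0729, adjusted p = 2.63e-07), a 1.94-fold higher level. SLC39A9, a Golgi transporter, rose from 55.8, 53.9 and 55.6 CPM to 82.7, 88.0 and 83.9 CPM, with a log2 fold change of 0.62 (SE 0.0548, adjusted p = 9.21e-07). SLC39A7, which releases zinc from the endoplasmic reticulum, rose from 89.6, 85.5 and 85.8 CPM to 124, 130 and 123 CPM, with a log2 fold change of 0.53 (SE 0.0543, adjusted p = 3.79e-06). For all 3 the libraries within a group were close together and the groups did not overlap. SLC39A6 was also higher, by 0.38 on the log2 scale, whereas SLC39A1 (-0.28), SLC39A4 (-0.23) and SLC39A13 (-0.23) fell. These 4 lay outside the rule for named genes and were named after their values were seen. SLC39A6 and SLC39A1 passed the test in all 16 alternatives, SLC39A4 in 10 and SLC39A13 in 9. SLC39A4 and SLC39A13 were lost with library size only and in the 3 limma fits. SLC39A4 was also lost without siCtrl 2 or siDDX17 3 (adjusted p = 0.0658 and 0.0604), and SLC39A13 without siCtrl 3, siDDX17 1 or siDDX17 3 (adjusted p = 0.110, 0.0786 and 0.0768).

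Among the other SLC30 exporters, 9 were in the table and 6 were tested, of which 0 rose and 2 fell. At an unadjusted p under 0.05 in edgeR, 0 were higher and 3 lower, beside 4303 higher and 4282 lower of all 15615 tested genes. DESeq2 gave 0 higher and 2 lower, beside 3223 higher and 3547 lower of 29476 genes. The median log2 fold change of the 6 was -0.23. SLC30A7, which loads zinc into the Golgi, was at 20.7, 16.1 and 18.0 CPM in siCtrl and 12.0, 11.7 and 13.5 CPM in siDDX17, with a log2 fold change of -0.56 (SE 0.0993, adjusted p = 0.000417). SLC30A3, which fills synaptic vesicles with zinc in neurons, was at 2.36, 3.29 and 2.86 CPM in siCtrl and 1.89, 2.19 and 1.51 CPM in siDDX17, with a log2 fold change of -0.60 (SE 0.184, adjusted p = 0.0158). Both were lower in every siDDX17 library than in every siCtrl library. The call for SLC30A3 was lost without siCtrl 2 (-0.50, adjusted p = 0.0634), without siDDX17 3 (-0.47, adjusted p = 0.0824) and in limma with no filter (adjusted p = 0.135), and that for SLC30A7 in limma with no filter (adjusted p = 0.0862). Counts of this size, 7 of 9 and 2 of 6 called in either direction, stand beside 24.5% higher and 24.3% lower among all tested genes. With library size only, or with limma on FPKM, 1 of the other SLC39 genes rather than 3 fell. With library size only, and in limma on log2(FPKM + 1) and log2(FPKM + 0.1), 5 rather than 4 rose. Over all tested genes, library size only gave 5230 higher and 2494 lower of 15615. Limma on log2(FPKM + 1) gave 4562 higher and 2234 lower of 12983.

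**Figure D5:**
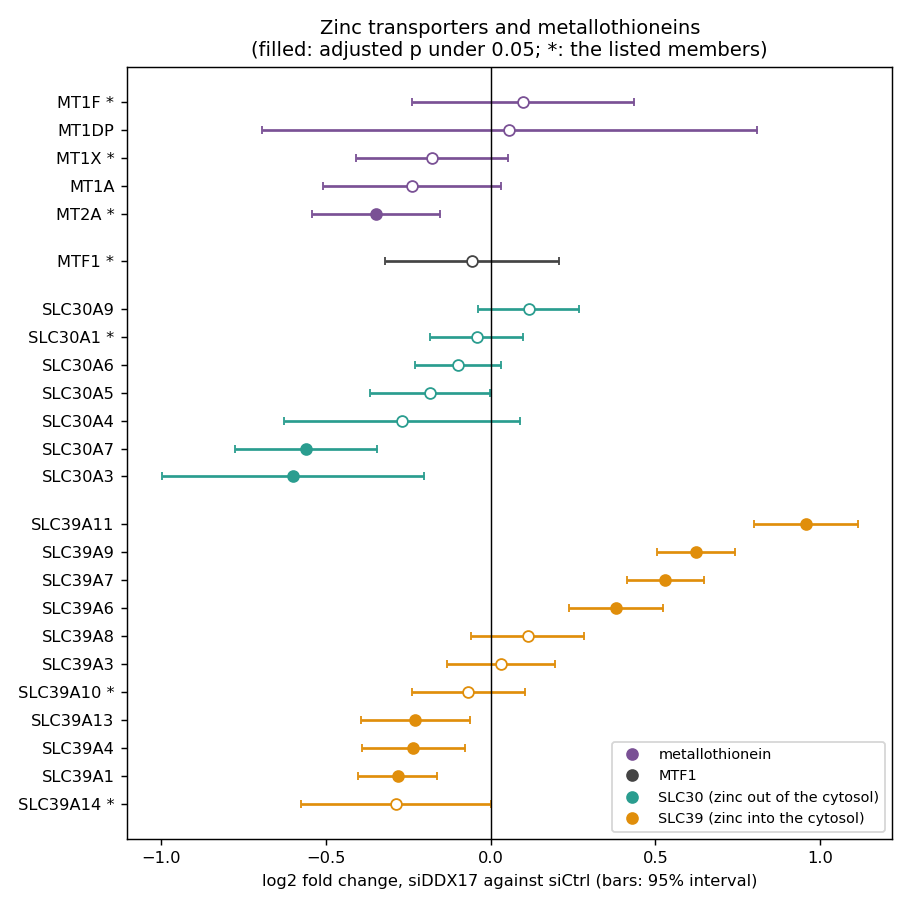
Log2 fold change (siDDX17 against siCtrl) with its 95% interval for metallothioneins, MTF1 and the SLC30 and SLC39 transporters that passed the low-count filter; filled points have an adjusted p under 0.05 and asterisks mark the 7 genes described first. Of those 7 only MT2A is filled, whereas SLC39A11, SLC39A9, SLC39A7 and SLC39A6 are filled to the right.

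The genes whose log2 CPM followed MT2A most closely over the 6 libraries were RNMTL1 (Pearson r = 0.999), MT1A (0.996) and CDKN2AIPNL (0.993). For SLC30A1 they were PNRC1 (0.994), DNAJC16 (0.988) and RRAS2 (0.986). These were the highest of all tested genes over only 6 points that share the same libraries and scaling, and they are given as a description.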

How the data were processed

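RNA-seq was done on 6 libraries, 3 siCtrl and 3 siDDX17. After trimming, the authors aligned reads to GRCh38 using TopHat2 and deposited raw counts of uniquely mapped reads per gene, together with FPKM values normalised for gene length and library size. The counting program, annotation version and use of strand are not given in the sources used here.

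From the counts, edgeR 4.0.16 (R 4.3.3) was used with TMM scaling, filterByExpr and the quasi-likelihood functions glmQLFit and glmQLFTest, and p-values were adjusted by Benjamini-Hochberg over all tested genes. DESeq2 1.42.0, limma 3.58.1 on log2(FPKM + 1) and log2(FPKM + 0.1), other scalings and filters, the replicate number as a block, and each library left out were tried as alternatives. The FPKM fits, apart from the alternative with no filter, kept genes with an FPKM of at least 0.5 in at least 3 libraries. The gene tests were checked on simulated data. Gene positions and shared windows came from GENCODE release 44, and promoters from RefSeq.

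The genes, gene lists and tests were chosen with earlier results of these data known. Named were the 8 genes, DDX17, the 3 genes of each further list with the largest change among those past the test that averaged 1 log2 CPM or more, and the 3 closest correlates of MT2A and SLC30A1. Replicate intervals cover the spread between libraries, and low counts, as for MT1F and MTF1, widen them.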

Additional observations from a re-analysis of the deposited data

How the results depend on the processing

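The log2 fold change of MT2A was negative in all 16 alternatives (-0.47 to -0.21) and passed the test in 13, the exceptions being the 3 fits of limma on FPKM. Scaling by library size only moved the median log2 fold change over the tested genes by 0.12, and limma on log2(FPKM + 0.1) moved it by 0.10. Under library size only, limma on log2(FPKM + 1), limma on log2(FPKM + 0.1) and limma without a filter, MTF1 was at 0.065, 0.030, 0.064 and 0.030, SLC30A1 at 0.079, 0.076, 0.087 and 0.076, and SLC39A10 at 0.054, 0.048, 0.060 and 0.048. Relative to the median of all genes, under library size only these 3 were at -0.06, -0.05 and -0.07. With each library left out, MT1F ranged from -0.010 to 0.21, MTF1 from -0.15 to 0.016 and SLC30A1 from -0.085 to 0.0029, none of them past the test.

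Of the 7 genes, 2 fell without a low-count filter and 0 in the limma fits; 1 to 2 fell with a library left out (2 without siCtrl 1, siCtrl 2 or siCtrl 3). Of the other metallothioneins, 2 fell in limma without a filter, and 0 to 1 with a library left out (1 without siCtrl 1). The 2 in limma were genes that the main filter removed, with at most 4 reads in any library, near the floor of the counts. Of the other SLC30 genes, 1 rose under library size only, limma on log2(FPKM + 1) and limma on log2(FPKM + 0.1), 0 fell in limma without a filter, and 1 to 3 fell with a library left out (1 without siCtrl 2 or siDDX17 3). Of the other SLC39 genes, 1 fell under library size only and in the 3 limma fits, and 1 to 3 with a library left out, 1 without siDDX17 3. Of the copper genes, 6 rose under library size only, 4 with upper quartile scaling, 4 with at least 10 counts in every library, and 5 with either pseudocount in limma; 1 fell under library size only, upper quartile scaling and the limma fits, and 1 to 2 with a library left out (2 without siCtrl 1). Of the iron genes, 5 rose and 2 fell under library size only, 2 fell in the limma fits, and 2 to 5 with a library left out (2 without siDDX17 1 or siDDX17 3). Over all 15615 tested genes, 3819 rose and 3798 fell in the main fit, against 5230 and 2494 under library size only. Upper quartile scaling gave 4144 and 3472. With at least 10 counts in every library, 3733 rose and 3578 fell of 14297 genes. Limma on log2(FPKM + 1) gave 4562 and 2234 of 12983 genes, and with no filter 4366 and 1917 of 29242. The causes were not tested. The other 192 of 234 recomputed counts and sums stayed within 1.5 times the main count or 1 SD. Many of these were 0 in the main fit and stayed 0, among them every count with the limit on fold change. The summed metallothionein level was -0.18 on FPKM and -0.19 under library size only, and -0.43 to -0.21 with a library left out.

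Same-numbered libraries did not deviate together (r = 0.0070, 0.041 and -0.056). These correlations cannot show whether same-numbered samples were prepared together, and the sample titles do not say. With the replicate block, 1 of the 7 genes fell and 0 rose, and MT2A was at -0.34.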

Other observations

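Metallothioneins also bind copper, and SLC39A14 also carries iron, so genes of copper and iron handling were examined beside them. Of 11 copper handling genes tested, 2 rose and 2 fell. SLC31A1, the main copper importer of the plasma membrane, fell from 38.8, 39.6 and 39.1 CPM in siCtrl to 30.1, 29.4 and 31.2 CPM in siDDX17 (log2 fold change -0.37, SE 0.0605, adjusted p = 0.000210, edgeR quasi-likelihood test with Benjamini-Hochberg adjustment). COX17 and COX11, which help to deliver copper to cytochrome c oxidase, rose by 0.31 and 0.29 on the log2 scale (adjusted p = 0.00544 and 0.000881, edgeR). The other gene that fell was SOD1, the copper-zinc superoxide dismutase, with a log2 fold change of -0.21, and it was named after its value was seen. Its groups overlapped (256, 324 and 309 CPM against 257, 254 and 257 CPM), and it passed in only 6 of 16 alternatives: the call was lost with library size only, upper quartile scaling and the 3 limma fits, and with any library but siCtrl 1 left out (adjusted p = 0.0843 to 0.151). COX17, COX11 and SLC31A1 passed in all 16. The count of copper genes that rose went from 2 to 6 when libraries were scaled by size only. Over all 15615 tested genes, the count that rose went from 3819 to 5230 with the same change of scaling.

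Of 13 iron handling genes tested, 3 rose and 4 fell. IREB2, an iron regulatory protein that controls ferritin translation and transferrin receptor mRNA stability, fell from 38.0, 35.1 and 36.4 CPM to 24.3, 22.4 and 23.9 CPM (log2 fold change -0.63, SE 0.0669, adjusted p = 4.99e-06, edgeR). PCBP1, an iron chaperone and RNA-binding protein, fell (-0.29), and SLC40A1, the iron exporter ferroportin, rose (0.28). The remaining calls, named after their values were seen, were PCBP2 (0.25) and ACO1 (0.18), which rose, and FTH1 (-0.22) and STEAP3 (-0.14), which fell. IREB2, PCBP1, SLC40A1 and PCBP2 passed in all 16 alternatives, FTH1 in 10, ACO1 in 9 and STEAP3 in 4. The call for FTH1 was lost with library size only, in the 3 limma fits and without siDDX17 1 or siDDX17 3 (adjusted p = 0.0626 and 0.0530). ACO1 was lost in DESeq2, with no low-count filter and with any library but siCtrl 3 left out, and without siCtrl 1 it was at 0.12 (adjusted p = 0.0660). STEAP3 was lost in most alternatives and was at -0.012 in limma (adjusted p = 0.842 with a pseudocount of 1), and with a library left out it passed only without siCtrl 1 or siDDX17 2. These counts stand beside 24.5% higher and 24.3% lower among all tested genes, and the medians of the copper and iron lists were 0.12 and -0.11.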
